A study of Mus musculus with 15 samples.

Results

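The 6 chemokine ligand genes Ccl22, Ccl17, Ccl3, Ccl4, Ccl5 and Cxcl10 were chosen by symbol from a table of 51912 mouse genes measured by RNA-seq, and each symbol matched 1 gene. Chemokines are small secreted proteins that draw leukocytes along a concentration gradient by acting on G protein-coupled receptors. CCL22 and CCL17 (also known as MDC and TARC) share the receptor CCR4 and attract regulatory and type 2 helper T cells, and both are known as genes that IL-4 induces in B cells and dendritic cells. CCL3 and CCL4 (MIP-1 alpha and MIP-1 beta) attract monocytes and T cells, and CCL3 acts on CCR1. They come from neighbouring genes that B cells switch on after antigen receptor stimulation. CCL5 (RANTES) acts on CCR1 and CCR3, and CXCL10, the product of an interferon-induced gene, acts on CXCR3.

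The samples were 15 libraries of polyA RNA in 5 groups of 3 biological replicates, all from wild-type mouse B cells, with no treatment named beyond the culture itself. B cells grew for 6 days with IL-4 (100 ng/ml) on 40LB cells, a fibroblast line made to present B cell survival and activation signals, and the unsorted culture at day 6 is the D6 group. The other cells left the feeder layer for 2 days in RPMI medium without stimulation and were sorted on day 8 by isotype and stage into 4 groups, IgG1 PC, IgG1 iGC, IgE PC and IgE iGC, where PC stands for plasma cells and iGC is the labels' name for the sorted cells of the same isotype that were not PC. The markers behind the sort are not given in the labels. The D6 group therefore differs from the sorted groups in day, in sorting, in contact with the feeder layer and in IL-4, and these cannot be told apart. In bulk RNA, fewer cells of a type and less RNA per cell cannot be told apart either.

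The total of expected counts per library ranged from 17740876 (IgE iGC replicate 3) to 54067953 (IgG1 PC replicate 2). Levels are given as CPM (counts-per-million, scaled by TMM) where groups are compared, and as TPM (transcripts-per-million), which divide by transcript length, where genes are compared. All 8 B cell markers were at 1 CPM or more in every group. The 8 plasma cell markers summed to 19465 to 21847 CPM in IgE PC and 10894 to 16304 CPM in IgG1 PC, against 665 to 1216 CPM in the rest. Markers of the fibroblast feeder (12 genes) summed to 255 to 388 CPM in D6, 62.1 to 84.9 in IgE iGC, 43.2 to 76.0 in IgG1 iGC and 26.3 to 41.3 in IgE PC. In IgG1 PC the same sum was 210.3, 79.1 and 210.5 CPM in replicates 1, 2 and 3, so replicates 1 and 3 carried more feeder marker RNA than any other sorted library. T and NK cell markers summed to 1.48 to 8.58 CPM over all libraries, and Cd3e was at 0 in every group but IgG1 PC, at 0.0117 CPM. Gzma, of the same list, was at 2.53 CPM in D6 and at 0 to 0.0461 CPM in the sorted groups. Of 15 myeloid and dendritic cell markers, C1qa, Clec9a and S100a9 were at 0 in all groups, and the sum, 9.40 to 106.5 CPM, came mostly from Flt3.

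Ccl22 had the highest TPM of the 6 ligands in every group, and its level separated the isotypes at both stages: it was lower in IgE than in IgG1 cells, by 3.40-fold in iGC and by 38.3-fold in PC. Ccl3 and Ccl4, at far lower levels, were also lower in IgE cells at both stages. Cxcl10 had its highest CPM in IgE PC, Ccl5 was highest in D6, and Ccl17 was barely detected. Changes were tested with edgeR's quasi-likelihood test on all 15 libraries, with Benjamini-Hochberg adjustment over 15692 genes and a threshold of 0.05, and 5 of the 6 members passed the filter on low counts; Ccl17 did not.

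Between IgE PC and IgG1 PC, 4 of the 5 tested members were called, Ccl22, Ccl3 and Ccl4 lower in IgE PC and Cxcl10 higher, where 58.1% of all tested genes were called. Between IgE iGC and IgG1 iGC, 3 of 5 were called (Ccl22, Ccl3 and Ccl4, all lower in IgE iGC) against a background of 3.87%, or 607 genes (323 to 403 without any 1 of the 6 iGC libraries, 1219 without IgG1 PC replicate 1). From IgE iGC to IgE PC, 2 were called (Ccl22 lower, Cxcl10 higher; background 64.1%), and from IgG1 iGC to IgG1 PC, 3 were called (Ccl3, Ccl4 and Cxcl10, all higher; background 59.1%). The difference between those 2 stage changes, an interaction of isotype and stage, was called for Ccl22 alone among the 5, where 42.9% of genes were called. Outside the comparison of the iGC groups, the background was thus 42.9% or more, and a call there is not unusual for a gene. The median log2 fold change of the 5 members was -4.30 between the PC groups and -1.77 between the iGC groups, against -0.05 and 0.01 over all tested genes. Leaving out each library in turn left 3 or 4 members called between the PC groups. Between the iGC groups it left 1 to 3, the lowest count being reached without IgE iGC replicate 1.

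**Figure D1:**
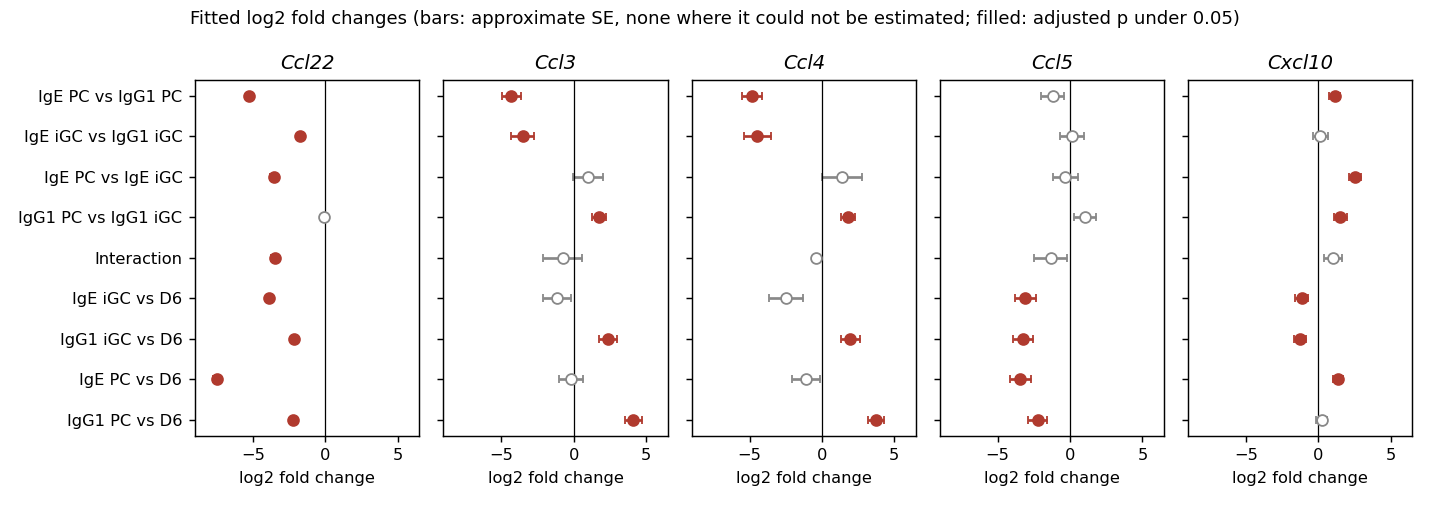
Log2 fold changes of the 5 tested ligands (x axis) in 9 comparisons (y axis) from the edgeR fit on 15 libraries, 3 in each group. Bars are approximate standard errors, filled points have an adjusted p under 0.05. No bar is drawn for the interaction of Ccl4. Ccl22 lies left of 0, filled, in 8 comparisons, at -5.26 between the PC groups, and from IgG1 iGC to IgG1 PC it lies at -0.09, not called (0.16 without IgG1 PC replicate 1).

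Ccl22 (ENSMUSG00000031779, chr8:94745590-94751699 on the plus strand of GRCm38) encodes the CCR4 ligand that activated B cells and dendritic cells release. The bases just upstream of its start are shown because the gene is a known target of NF-kB. They run from chr8:94745434-94745589, the 156 bases of the RefSeq promoter (GRCm38.p6) that lie before both the RefSeq and the GENCODE start, read 5′ to 3′ on the plus strand, with a match to an NF-kB pattern in capitals.
Ccl22 promoter: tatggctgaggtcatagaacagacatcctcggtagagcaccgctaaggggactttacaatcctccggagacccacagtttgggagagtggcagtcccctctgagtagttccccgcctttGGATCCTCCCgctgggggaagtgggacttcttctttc
The pattern searched on both strands was GGGA, any 4 bases, CC, and the match lies on the minus strand with its first base 37 bases before the end of the window. Of 32851 RefSeq promoters cut to the same 156 bases, 10.3% held this pattern. Neither the STAT6 pattern (TTC, any 4 bases, GAA) nor the interferon response pattern (GAAA, any 2 bases, GAAA) was found in this window, which says only that these letters are not in it.

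In D6, Ccl22 had 40720, 50323 and 47393 reads in the 3 libraries, or 1106 ± 158 CPM (SD, n = 3). In IgG1 iGC it had 9866, 9217 and 9148 reads (251 ± 12.1 CPM), and in IgG1 PC 4199, 15143 and 12440 reads (236 ± 78.0 CPM). In IgE iGC it had 3087, 2633 and 1522 reads (74.0 ± 4.28 CPM), and in IgE PC 190, 204 and 189 reads (6.18 ± 0.582 CPM). The order was thus D6, IgG1 iGC, IgG1 PC, IgE iGC and IgE PC. The CPM ranges of neighbouring groups in that order did not overlap, except those of IgG1 iGC and IgG1 PC, since IgG1 PC spread from 146.9 CPM in replicate 1 to 292 CPM in replicate 2. Replicate 1 of IgG1 PC was also the one with the highest summed plasma cell markers of its group, 16304 CPM against 11624 and 10894.

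**Figure D2:**
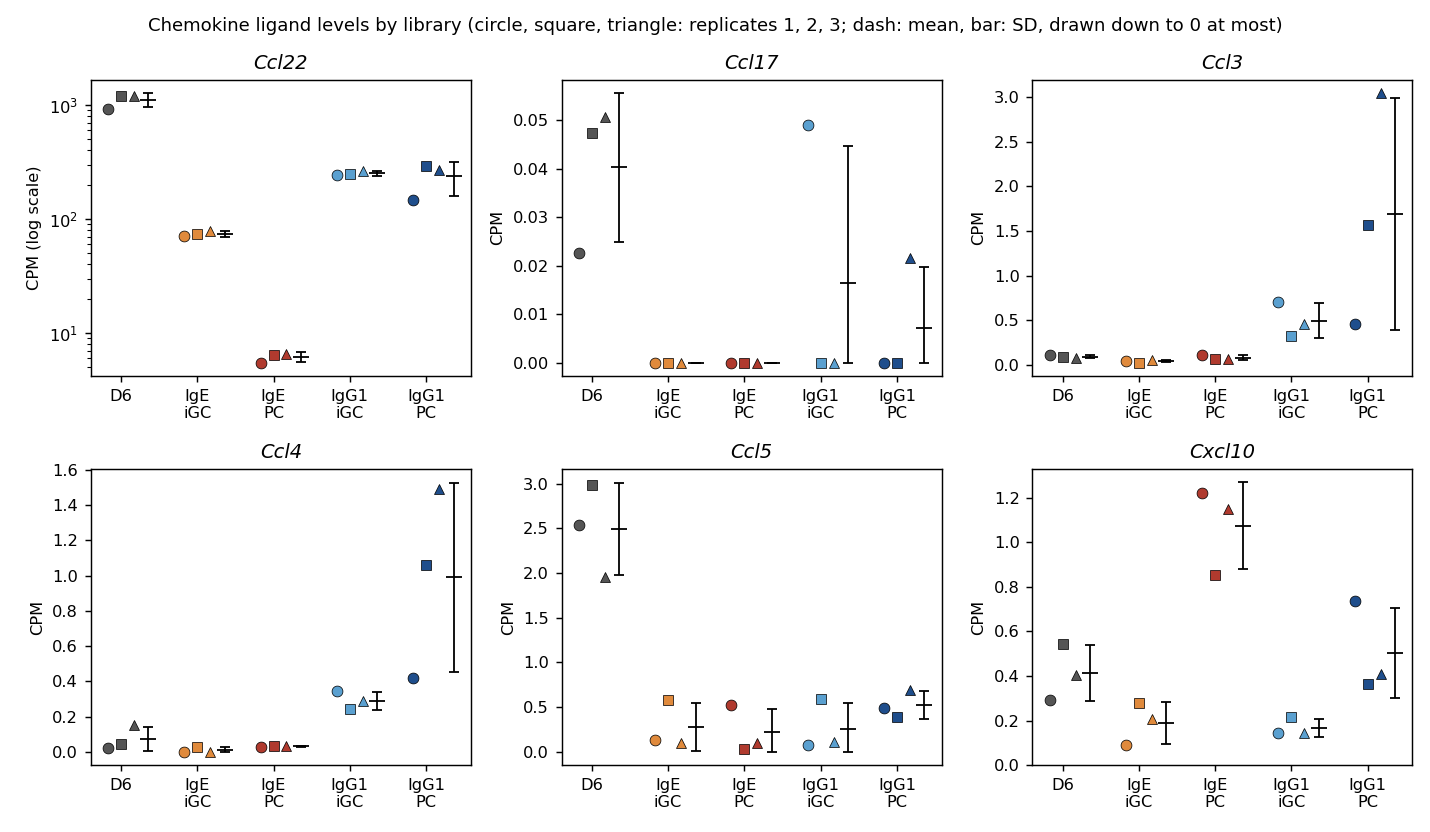
CPM of the 6 ligands (y axis, log scale for Ccl22 only) in the 3 libraries of each group (x axis); symbols mark replicates 1 to 3, dashes the mean and bars the SD. For Ccl22 the 3 IgE PC libraries sit between 5.51 and 6.59 CPM, below every other library, and the D6 libraries sit between 924 and 1203 CPM, above every other.

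Between IgE PC and IgG1 PC the log2 fold change of Ccl22 was -5.26 (SE 0.24, adjusted p = 8.30e-10, edgeR quasi-likelihood test) and between IgE iGC and IgG1 iGC it was -1.77 (SE 0.19, adjusted p = 0.000140). It fell by 3.58 from IgE iGC to IgE PC (SE 0.23, adjusted p = 4.40e-09). From IgG1 iGC to IgG1 PC the log2 fold change was -0.09 (SE 0.19, edgeR adjusted p = 0.700), and the interaction, the IgE stage change minus the IgG1 stage change, was -3.49 (SE 0.29, edgeR adjusted p = 9.24e-07). The isotypes thus differed in how Ccl22 changed from iGC to PC. The IgG1 stage change depended on the unit and on 1 library: limma on log2(TPM + 0.5) gave -0.76 with an adjusted p of 0.0148, and the fit without IgG1 PC replicate 1 gave 0.16 with an edgeR adjusted p of 0.190. The isotype differences and the interaction were called in each of these settings. Of 6 tested myeloid and dendritic cell markers, 4 were lower in IgE PC than in IgG1 PC (58.1% of all genes called). Between the iGC groups, 3 were lower in IgE iGC (3.87% called). Flt3, Itgax and Adgre1 were lower at both stages, with Flt3 at 8.86 CPM in IgE PC and 43.1 in IgG1 PC. In iGC, Flt3 was at 45.8 CPM for IgE and 94.5 for IgG1, while Lyz2, not called, was at 0.396 CPM for IgE and 0.109 for IgG1. Feeder markers were also lower in IgE PC than in IgG1 PC (9 of 10), while 0 of 10 were called between the iGC groups. Between the PC groups, 6 of 8 plasma cell markers were higher and 5 of 8 B cell markers lower in IgE PC. The part of any of these in the Ccl22 differences was not tested.

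Against D6, which all 4 sorted groups share as their reference, Ccl22 was 4.40-fold lower in IgG1 iGC, 4.68-fold lower in IgG1 PC, 14.97-fold lower in IgE iGC and 179-fold lower in IgE PC, and each was called. Ccl22 was therefore lower in every sorted group than in the culture on feeder cells with IL-4. Feeder markers moved with it: of the 10 tested, 8 were lower than in D6 in IgE iGC, in IgG1 iGC and in IgE PC, and 4 in IgG1 PC, and their part in the Ccl22 result was not tested. The share of genes called against D6 was 69.1% in IgE iGC, 68.4% in IgG1 iGC, 76.4% in IgE PC and 71.9% in IgG1 PC. Of the 5 tested members, 3 were called in IgE iGC (Ccl22, Ccl5 and Cxcl10, all lower), 5 in IgG1 iGC (Ccl3 and Ccl4 higher, the other 3 lower), 3 in IgE PC (Cxcl10 higher, Ccl22 and Ccl5 lower) and 4 in IgG1 PC (Ccl3 and Ccl4 higher, Ccl22 and Ccl5 lower).

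On the TPM scale, Ccl22 made up most of the chemokine ligand RNA in 4 of the 5 groups. The TPM of 38 ligand genes summed to 952 ± 143 in D6, 212 ± 12.2 in IgG1 iGC, 159 ± 49.9 in IgG1 PC, 80.3 ± 5.42 in IgE iGC and 13.8 ± 1.62 in IgE PC (SD, n = 3 each). Ccl22 held 94.5% of that sum in D6, 88.0% in IgG1 iGC, 72.7% in IgG1 PC, 67.4% in IgE iGC and 20.0% in IgE PC. In IgE PC it was no longer the leading ligand: Ccl25, a ligand of CCR9, had 3.74 TPM and Ccl2, a ligand of CCR2, had 3.08 TPM, against 2.71 TPM for Ccl22. Among all genes ordered by mean TPM, Ccl22 stood at rank 178 in D6, 673 in IgG1 iGC, 898 in IgG1 PC, 2694 in IgE iGC and 9569 in IgE PC. TPM are not scaled by TMM, so these sums and ranks compare groups less directly than CPM. Ccl25, for example, was at 4.85 CPM in IgE PC and 4.37 CPM in D6, but at 3.74 and 5.14 TPM.

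**Figure D3:**
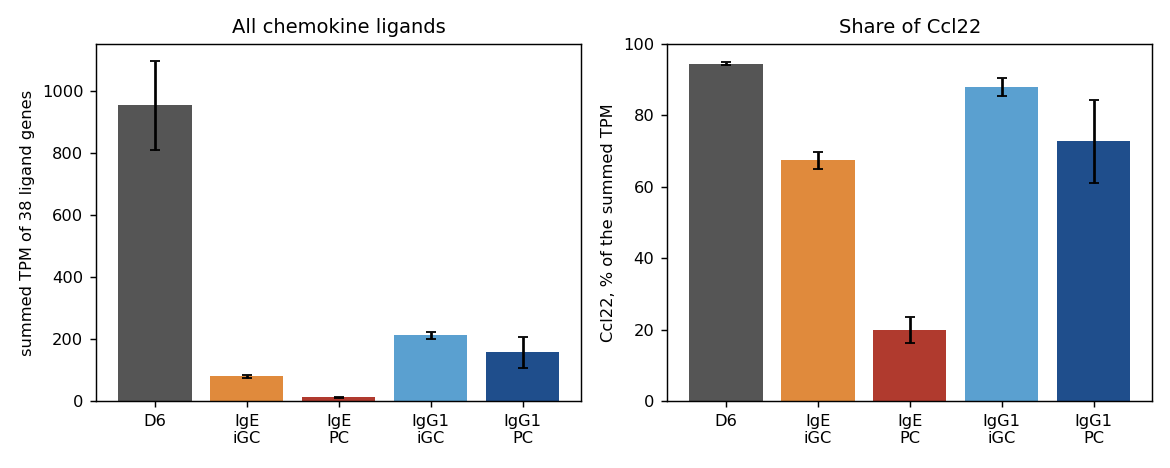
Summed TPM of 38 chemokine ligand genes (left) and the percent of that sum held by Ccl22 (right) in each group; bars are means and whiskers the SD of 3 libraries. The sum runs from 952 TPM in D6 to 13.8 TPM in IgE PC, and the Ccl22 share from 94.5% to 20.0%. TPM are not scaled by TMM between groups.

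Ccl17 (ENSMUSG00000031780, chr8:94810453-94812036, plus strand) encodes the other CCR4 ligand and lies 58754 bp downstream of Ccl22, with Cx3cl1 between them. It is shown with its promoter because IL-4 acts on it through STAT6. The 250 bases chr8:94810203-94810452 of the RefSeq promoter (GRCm38.p6, plus strand) hold the STAT6 pattern at 1 place, printed in capitals. This place matches on both strands because the pattern, with its free bases, is symmetric. Of promoters of this length, 5.85% hold the pattern.
Ccl17 promoter: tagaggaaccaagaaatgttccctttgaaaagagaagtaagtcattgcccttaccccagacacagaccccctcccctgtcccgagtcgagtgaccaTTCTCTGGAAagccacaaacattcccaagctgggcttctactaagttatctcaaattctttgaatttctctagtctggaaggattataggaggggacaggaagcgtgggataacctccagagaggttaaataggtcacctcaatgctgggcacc
Despite the IL-4 in the culture, Ccl17 gave only 5 reads in D6 over the 3 libraries (1, 2 and 2), 2 in IgG1 iGC (all in replicate 1), 1 in IgG1 PC (replicate 3) and 0 in both IgE groups. A count of 0 allows up to 0.0302 CPM in IgE iGC and 0.0316 CPM in IgE PC, taking 3 reads over the group as the limit, and covers counting error only. The D6 mean of 0.0403 CPM lies close to these limits, so a difference between groups was not detectable at this depth. The neighbouring Cx3cl1, the membrane-bound ligand of CX3CR1, was at 2.47 CPM in D6 and at 0.297 to 1.16 CPM in the sorted groups. Ccl22 and Ccl17, side by side on the chromosome, thus stood at 900 ± 136 TPM and 0.160 ± 0.0608 TPM in the same D6 libraries (SD, n = 3).

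Ccl3 (ENSMUSG00000000982, chr11:83647844-83649355, minus strand) and Ccl4 (ENSMUSG00000018930, chr11:83662584-83664683, plus strand) lie 13229 bp apart and point away from each other. In the 250 bases before the start of Ccl3, none of the 3 patterns occurred. The promoters of Ccl4 and Ccl5 were not used here. Both genes were expressed mainly in IgG1 cells, at low counts. Ccl3 gave 29, 12 and 16 reads in IgG1 iGC (0.499 ± 0.197 CPM) and 13, 81 and 141 reads in IgG1 PC (1.69 ± 1.299 CPM), against 2, 1 and 1 reads in IgE iGC (0.0416 ± 0.0124 CPM) and 4, 2 and 2 reads in IgE PC (0.0830 ± 0.0289 CPM; SD, n = 3 each). D6 gave 5, 4 and 3 reads (0.0948 ± 0.0187 CPM). Every IgG1 library was above every IgE and D6 library, and the IgG1 PC libraries themselves ranged from 0.455 to 3.04 CPM.

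Ccl4 followed the same order. It gave 14, 9 and 10 reads in IgG1 iGC (0.292 ± 0.0509 CPM) and 12, 55 and 69 reads in IgG1 PC (0.990 ± 0.538 CPM). In the IgE groups it gave 0, 1 and 0 reads in iGC and 1, 1 and 1 in PC, and in D6 1, 2 and 6 reads (0.0741 ± 0.0688 CPM). Replicate 1 of IgG1 PC was the lowest of its group for both genes. Across the 15 libraries, which share depth and group structure, Pearson's r between Ccl3 and Ccl4 was 0.98 on the log2(CPM + 0.5) scale. On the TPM scale the ratio of Ccl3 to Ccl4 lay between 0.908 and 1.75 in the 6 IgG1 libraries.

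With counts this low the ratio of pooled CPM is given with its exact 95% interval, which covers counting error only. Ccl3 was 22.0-fold higher in IgG1 PC than in IgE PC (interval 10.97 to 51.5) and 12.6-fold higher in IgG1 iGC than in IgE iGC (4.65 to 47.7). For Ccl4 the ratios were 33.9 (11.4 to 166.5) and 29.1 (4.88 to 1185), the latter resting on 1 read in IgE iGC. In the edgeR quasi-likelihood fit, the isotype difference between PC groups was -4.30 for Ccl3 (SE 0.63, adjusted p = 3.50e-05) and -4.86 for Ccl4 (SE 0.69, adjusted p = 2.39e-05). Between iGC groups it was -3.53 for Ccl3 (SE 0.78, adjusted p = 0.0175) and -4.46 for Ccl4 (SE 0.94, adjusted p = 0.0130). The PC calls stood when any 1 library was left out. The iGC call of Ccl3 was lost without any 1 of the IgE iGC libraries or without IgG1 iGC replicate 1 (edgeR adjusted p 0.0534 to 0.0954) and with limma on TPM (adjusted p = 0.0806), and that of Ccl4 without IgE iGC replicate 1 (edgeR adjusted p = 0.0891).

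From iGC to PC in IgG1 cells, Ccl3 rose 3.41-fold and Ccl4 3.43-fold (edgeR adjusted p = 0.00578 and 0.00491). The rise of Ccl3 was not called without IgG1 PC replicate 3 (log2 fold change 1.05, edgeR adjusted p = 0.0633) or with limma on TPM (0.71, adjusted p = 0.123). In IgE cells the log2 stage changes, 1.00 and 1.38, were not called (edgeR adjusted p = 0.417 and 0.402), and the interaction was called for neither gene (edgeR adjusted p = 0.679 and 0.966), so a difference between the isotypes in the stage change was not detectable at these counts. Against D6, Ccl3 was 5.12-fold higher in IgG1 iGC and 17.4-fold higher in IgG1 PC, and Ccl4 3.91-fold and 13.4-fold. All 4 were called, and the IgG1 iGC value of Ccl4 was not called without D6 replicate 1 (edgeR adjusted p = 0.0570).

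Of the 6 tested myeloid and dendritic cell markers, 4 were lower in IgE PC than in IgG1 PC (58.1% of all genes called) and 3 were lower in IgE iGC than in IgG1 iGC (3.87% called), so part of that list moved with Ccl22, Ccl3 and Ccl4. Its sum was 9.40 to 10.7 CPM in IgE PC, 36.7 to 56.0 in IgG1 PC, 49.2 to 56.9 in IgE iGC and 100.8 to 106.5 in IgG1 iGC, and Flt3 alone gave 8.86, 43.1, 45.8 and 94.5 CPM. Csf1r was at 0.0975 CPM or less in the sorted groups and Cd14 at 0.0172 CPM or less, with C1qa, Clec9a and S100a9 at 0. Others of the list were higher. In the same order of groups as the sums, Itgam was at 0.478, 2.35, 4.57 and 6.12 CPM. Adgre1 was at 0.0855, 0.986, 0.629 and 1.73 CPM. Itgam was not called between the iGC groups (edgeR adjusted p = 0.408). The part of such cells in the results for Ccl22, Ccl3 and Ccl4 was not tested. Feeder markers moved with Ccl3 and Ccl4 in part of the comparisons. Of the 10 tested, 9 were lower in IgE PC than in IgG1 PC, and 8 rose from IgG1 iGC to IgG1 PC (59.1% of all genes called). Between the iGC groups, where Ccl3 and Ccl4 differed, 0 of the 10 were called. In IgG1 iGC against D6, 8 were lower while Ccl3 and Ccl4 were higher. Within IgG1 PC, replicates 1, 2 and 3 had 0.455, 1.56 and 3.04 CPM of Ccl3 beside 210.3, 79.1 and 210.5 CPM of feeder markers, so replicate 3 was highest for both and replicate 1 lowest for Ccl3 alone. The part of feeder RNA in these results was not tested.

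**Figure D4:**
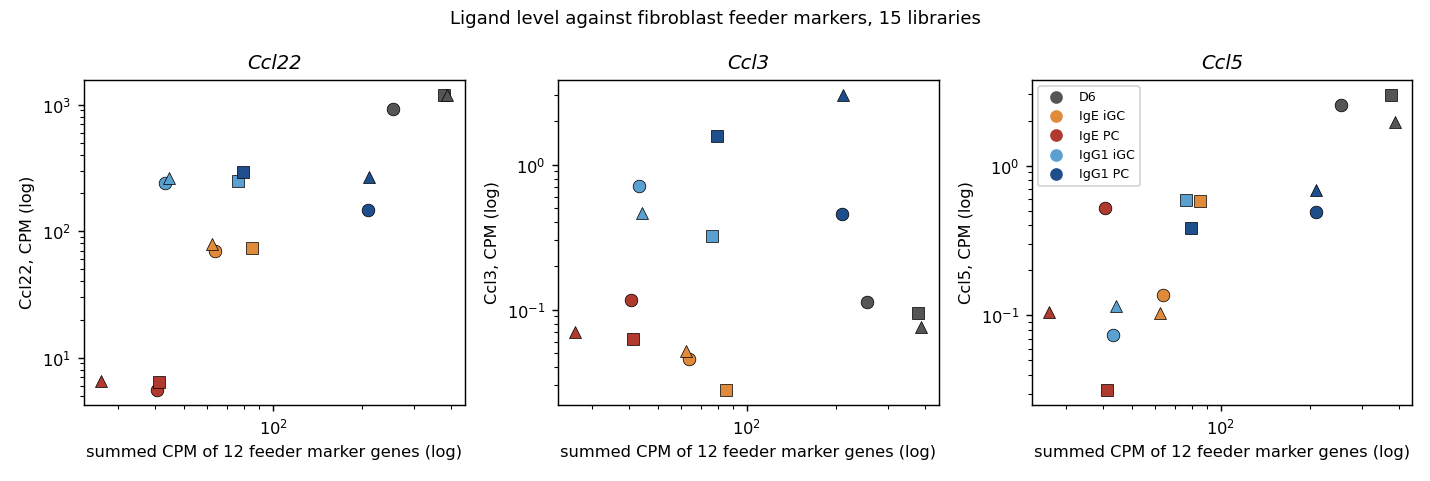
CPM of Ccl22, Ccl3 and Ccl5 (y axes, log scale) against the summed CPM of 12 fibroblast feeder markers (x axis, log scale) in 15 libraries, coloured by group, with circles, squares and triangles for replicates 1 to 3. D6 libraries hold the most feeder RNA (255 to 388 CPM) and the most Ccl22 and Ccl5, with Ccl3 at 0.0761 to 0.113 CPM.

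Ccl5 (ENSMUSG00000035042, chr11:83525778-83530518, minus strand) encodes RANTES, which T cells, NK cells and many stimulated tissue cells release. It was highest in D6, with 112, 126 and 77 reads (2.49 ± 0.518 CPM). In the sorted groups it gave 14, 20 and 32 reads in IgG1 PC (0.522 ± 0.155 CPM), 6, 21 and 2 in IgE iGC (0.274 ± 0.268 CPM), 3, 22 and 4 in IgG1 iGC (0.260 ± 0.287 CPM) and 18, 1 and 3 in IgE PC (0.220 ± 0.265 CPM). The lowest D6 library, at 1.95 CPM, was above the highest sorted one, at 0.691 CPM, while the ranges of neighbouring sorted groups all overlapped. In IgE iGC and IgG1 iGC replicate 2, and in IgE PC replicate 1, Ccl5 stood apart from the other replicates of the group.

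Ccl5 was lower than in D6 in all 4 sorted groups: the log2 fold change was -3.10 in IgE iGC (SE 0.72, edgeR adjusted p = 0.00136), -3.25 in IgG1 iGC (SE 0.71, edgeR adjusted p = 0.000893), -3.44 in IgE PC (SE 0.74, edgeR adjusted p = 0.000625) and -2.25 in IgG1 PC (SE 0.65, edgeR adjusted p = 0.00627). These 4 calls stood when any 1 library was left out. Of the 10 tested feeder markers, 8 were lower than in D6 in IgE iGC, in IgG1 iGC and in IgE PC, and 4 in IgG1 PC. The share of all genes called against D6 was 68.4% to 76.4%. Summed feeder markers, like Ccl5, were higher in every D6 library than in any sorted library. T and NK cell markers summed to 6.65 to 8.58 CPM in D6 and 1.48 to 4.72 CPM in the sorted libraries. Of the 5 tested, 3 were lower than in D6 in IgE iGC, in IgG1 iGC and in IgE PC, and 2 in IgG1 PC. In each IgG1 group 1 was higher. Gzma was at 2.53 CPM in D6 and at 0 to 0.0461 CPM in the sorted groups, while Cd3e was at 0 in D6. The part of either in the Ccl5 result was not tested.

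Between the sorted groups, Ccl5 was not called in the full fit. The log2 fold change was -1.19 between the PC groups (SE 0.80, edgeR adjusted p = 0.217) and 0.15 between the iGC groups (SE 0.84, edgeR adjusted p = 0.976). Without IgE PC replicate 1 the PC difference was -2.91 with an edgeR adjusted p of 0.0268, and without IgG1 iGC replicate 2 the rise from IgG1 iGC to IgG1 PC was 2.44 with an edgeR adjusted p of 0.0328, against 1.00 and 0.273 with all libraries. Single libraries therefore set whether Ccl5 was called among the sorted groups.

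Cxcl10 (ENSMUSG00000034855, chr5:92346638-92348889, minus strand) encodes the ligand of CXCR3, a receptor of effector T cells and of some memory B cells and plasma cells. Its promoter is shown because interferon and NF-kB both act on it: the 250 bases of chr5:92348890-92349139 (RefSeq, GRCm38.p6, read 5′ to 3′ on the minus strand) hold the interferon response pattern once and the NF-kB pattern at 2 places, printed in capitals.
Cxcl10 promoter: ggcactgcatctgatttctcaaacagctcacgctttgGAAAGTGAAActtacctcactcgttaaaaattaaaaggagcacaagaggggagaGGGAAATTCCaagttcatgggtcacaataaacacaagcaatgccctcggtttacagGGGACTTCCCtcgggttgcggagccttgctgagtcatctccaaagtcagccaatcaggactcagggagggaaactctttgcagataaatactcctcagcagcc
In promoters of this length, 2.98% held the interferon response pattern and 17.6% the NF-kB pattern. The gene overlaps Art3 on the other strand, but Art3 had at most 5 reads in any library, fewer than Cxcl10 in the same library.

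Cxcl10 was detected at low counts in all 15 libraries. It gave 42, 27 and 33 reads in IgE PC (1.07 ± 0.195 CPM), 21, 19 and 19 in IgG1 PC (0.504 ± 0.201 CPM) and 13, 23 and 16 in D6 (0.415 ± 0.125 CPM). In iGC it gave 4, 10 and 4 reads for IgE (0.192 ± 0.0942 CPM) and 6, 8 and 5 for IgG1 (0.169 ± 0.0397 CPM; SD, n = 3 each). The lowest IgE PC library, at 0.853 CPM, was above the highest of any other group, at 0.735 CPM. The ranges of IgG1 PC and D6 overlapped, as did those of the iGC groups. In TPM the order changed: IgE PC stayed first at 0.843 ± 0.204 TPM, D6 came next at 0.710 ± 0.221 and IgG1 PC after it at 0.533 ± 0.117, and the ranges of all neighbouring groups overlapped.

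Cxcl10 rose from iGC to PC in both isotypes, 5.71-fold in IgE cells (edgeR adjusted p = 8.00e-05) and 2.86-fold in IgG1 cells (edgeR adjusted p = 0.00721). The difference between these rises was not called (interaction 1.00, SE 0.62, edgeR adjusted p = 0.217). It was 2.19-fold higher in IgE PC than in IgG1 PC (log2 fold change 1.13, SE 0.37, edgeR adjusted p = 0.0154), a call that was lost without IgE PC replicate 1 or without IgG1 PC replicate 2 or 3 (edgeR adjusted p 0.0570 to 0.0591). With limma on log2(TPM + 0.5) the IgE rise stood, while the IgG1 rise (0.29, adjusted p = 0.136) and the difference between PC groups (0.37, adjusted p = 0.0778) were not called. Against D6, Cxcl10 was higher in IgE PC by 1.37 (edgeR adjusted p = 0.00339; limma on TPM 0.16, adjusted p = 0.393) and lower in both iGC groups, with log2 fold changes of -1.15 in IgE iGC and -1.28 in IgG1 iGC (edgeR adjusted p = 0.0314 and 0.0166). Each of the 2 iGC calls was lost on leaving out any of several libraries, D6 replicate 2 among them (edgeR adjusted p = 0.125 and 0.0774). In IgG1 PC against D6 the value was 0.24 (edgeR adjusted p = 0.595).

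Of 18 other interferon-stimulated genes that were tested, 7 were higher and 3 lower in IgE PC than in IgG1 PC, with a median log2 fold change of 0.30 against -0.05 over all genes, and 58.1% of all genes were called there. The 3 with the smallest p were Gbp2, a guanylate-binding protein, which was lower in IgE PC at 4.37 CPM against 17.9, Oas1a, a sensor of double-stranded RNA, lower at 0.848 CPM against 4.07, and Ddx58, which encodes RIG-I, higher at 150.3 CPM against 117. From iGC to PC, 4 of the 18 rose and 5 fell in IgE cells, and 5 rose and 7 fell in IgG1 cells, beside 64.1% and 59.1% of all genes called in either direction. Cxcl9 and Cxcl11, the other CXCR3 ligands, did not pass the filter.

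The genes whose levels ran most like each tested ligand over the 15 libraries, by Pearson's r of log2(CPM + 0.5) among genes with a group mean of at least 10 CPM, are given as a description of libraries that share their groups. For Ccl22 they were Shank1, a synaptic scaffold gene (r = 0.99), Fabp5, a fatty acid-binding protein (0.98), and Slfn2, a Schlafen family gene (0.98). Shank1 had 27.7 CPM in D6, 11.96 in IgG1 iGC, 11.9 in IgG1 PC, 4.72 in IgE iGC and 0.910 in IgE PC, the same order of groups as Ccl22. For Ccl3 they were Adam19 (0.81), Ada (0.80) and Sart3 (0.76), and for Ccl4 Sart3 (0.83), Ada (0.83) and Ddt (0.81). Ada, adenosine deaminase, had 48.7 CPM in IgG1 PC and 10.47 to 23.9 CPM in the other groups.

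For Ccl5 the nearest genes were Kitl, which encodes stem cell factor (r = 0.95), Wdfy3 (0.95) and Hmga2, a chromatin gene of embryonic and mesenchymal cells (0.94). Hmga2 had 44.1 CPM in D6 and 1.37 to 4.44 CPM in the sorted groups. For Cxcl10 they were Bcat2 (0.96), Rab2a (0.96) and Vmp1 (0.96), genes of amino acid breakdown, of vesicle transport and of autophagy. Bcat2 had 119 CPM in IgE PC, 59.9 in IgG1 PC, 46.8 in D6, 30.1 in IgE iGC and 27.8 in IgG1 iGC, again in the order of the ligand.

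Some receptors of the 6 ligands were also measured in the same cells. Ccr4, the receptor of CCL22 and CCL17, was at 11.7 to 16.6 CPM in all 5 groups, and its isotype differences were not called (log2 fold change -0.32 in PC and 0.30 in iGC, edgeR adjusted p = 0.125 and 0.480). Ackr2, a decoy receptor that takes up many inflammatory CC chemokines, was at 61.2 ± 2.38 CPM in IgG1 iGC and 43.7 ± 5.36 in IgE iGC and at 19.1 ± 3.94 in IgG1 PC and 2.40 ± 0.0876 in IgE PC. Its log2 fold change between IgE PC and IgG1 PC was -3.00 (edgeR adjusted p = 4.29e-09). Ccr1, a receptor of CCL3 and CCL5, was lower in IgE PC, at 1.83 CPM in IgG1 PC against 0.0415 CPM in IgE PC (edgeR adjusted p = 5.85e-07). Ccrl2, an atypical receptor that binds chemerin, was at 13.8 CPM in IgE PC, 4.61 in IgG1 PC and 0.656 to 1.15 CPM elsewhere. Cxcr3, the receptor of CXCL10, was at 0.0653 to 0.497 CPM, and Ccr3 and Ackr1 did not pass the filter.

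Of 32 other chemokine ligands, 12 passed the filter. Between the PC groups 10 of the 12 were lower in IgE PC, as Ccl22, Ccl3 and Ccl4 were. The median log2 fold change of the 12 was -2.13, against -0.05 over all genes. It was the same with Xcl1, which has no read in IgE PC, set to 3 reads over that group. Between the iGC groups 1 of 12 was called, lower in IgE iGC. From IgG1 iGC to IgG1 PC, 7 of 12 rose. The share of all genes called in either direction was 58.1%, 3.87% and 59.1% in these comparisons, in the order given. Of those with 1 CPM or more in a group, Ccl2 was at 7.73 CPM in IgG1 PC against 2.44 in IgE PC, Ccl7, like CCL2 a ligand of CCR2, at 4.88 against 0.959, and Ccl9 at 2.18 against 0.133. Ccl25, at 4.32 against 4.85 CPM, and Cx3cl1, at 1.16 against 0.472 CPM, were not called (edgeR adjusted p = 0.460 and 0.0639). Of the 10 tested feeder markers, 9 were lower in IgE PC than in IgG1 PC and 8 rose from IgG1 iGC to IgG1 PC, so they moved with the ligands called there. Within IgG1 PC, Ccl2, Ccl7 and Cxcl12 were lowest in replicate 2, at 3.45, 1.64 and 0.174 CPM against at least 8.22, 5.40 and 1.32 CPM in the others, and replicate 2 was also lowest for feeder markers. Ccl22, Ccl3 and Ccl4 were not lowest there but in replicate 1. The part of feeder RNA in these ligands was not tested.

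Among 28 activation and NF-kB response genes, all tested, 24 were lower and 2 higher in IgE PC than in IgG1 PC (median -0.79 against -0.05 over all genes), and 9 were lower in IgE iGC than in IgG1 iGC, where 3.87% of all genes were called in either direction. Bhlhe40, a transcription factor gene induced by activation, had 50.5 ± 1.44 CPM in IgE iGC and 123 ± 2.35 CPM in IgG1 iGC (edgeR adjusted p = 8.12e-06), and Nr4a1 and Nr4a3, which respond early to antigen receptor signals, had 1.98 against 4.96 CPM and 0.793 against 3.20 CPM. Other genes of the list were not called there: Egr1 had 186 against 151.5 CPM, Egr2 39.7 against 40.2 and Cd69 37.4 against 36.8 (edgeR adjusted p = 0.712, 0.968 and 0.991). Of 12 IL-4 and STAT6 response genes, 6 were lower and 2 higher in IgE PC than in IgG1 PC, where 58.1% of all genes were called in either direction. Il4i1, an amino acid oxidase gene induced by IL-4, was at 339 ± 37.1 CPM in IgG1 PC against 40.8 ± 5.74 CPM in IgE PC (edgeR adjusted p = 3.86e-11). The 2 that were higher in IgE PC were Nfil3, at 19.6 CPM in IgG1 PC against 53.5 in IgE PC, and Cish, at 28.4 against 41.4 (edgeR adjusted p = 3.07e-10 and 0.00100). Between iGC groups, 2 of the 12 were called, both lower in IgE iGC, beside the 3.87% of all genes.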

How the data were processed

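PolyA RNA was sequenced as 76 bp single-end, strand-specific reads in 15 libraries. Per the submitters' processing notes, the authors used cutadapt 1.9.1, STAR 2.5.2a, RSEM 1.3.0 and DESeq2 1.12.3 with GRCm38; whether counting used the strand, and which annotation, is not given in the sources used here. Per the file headers, the authors deposited RSEM expected counts per gene and TPM. Expected counts of the 6 members were whole numbers in every library, so no read was split between them and similar genes. Symbols and coordinates come from GENCODE vM21 (GRCm38) and promoter sequences from RefSeq (GRCm38.p6).

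Expected counts were rounded and filtered with filterByExpr (minimum count 10, minimum total 15), which left 15692 genes. They were fitted with TMM scaling and 1 mean per group by edgeR 4.0.16 (robust quasi-likelihood, 10 residual degrees of freedom), and p-values were adjusted by Benjamini-Hochberg over all tested genes. Standard errors are approximate (the fold change divided by the square root of F). The named genes are the 6 members, the tested chemokine ligands and receptors, the 3 genes most correlated with each member and cell type markers. Of other lists, at most 3 genes with the smallest p per comparison are named, with some that were not called or went the other way beside them. The members and lists were chosen with earlier results of these data known. Alternatives were other scalings, no filter, DESeq2 1.42.0, limma 3.58.1 on log2(TPM + 0.5), the compared groups only, a replicate block and leaving out each library. Replicates are labelled biological, but no label says what they were drawn from. 1 receptor gene is not reported here.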

Additional observations from a re-analysis of the deposited data

Results flagged for a closer look

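The change of Ccl22 from iGC to PC differed between the isotypes. The interaction of isotype and stage was -3.49 on the log2 scale (SE 0.29, edgeR quasi-likelihood test, adjusted p = 9.24e-07), from 74.0 to 6.18 CPM in IgE cells and from 251 to 236 CPM in IgG1 cells. In each of the 15 fits that left out 1 library, it lay between -3.74 and -3.31. It is not particular to Ccl22. The interaction was also called and negative for 8 of 12 other chemokine ligands and 8 of 10 feeder markers. The same held for 5 of 6 myeloid and dendritic cell markers, where 42.9% of all genes were called in either direction. The part of such cells in the Ccl22 interaction was not tested.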

How the results depend on the processing

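Over the 45 log2 fold changes of the 5 tested members, 979 values were recomputed under other settings, and 936 kept their direction and their side of the threshold, 24 lost the call, 6 gained one and 13 changed sign. Of the 979, 675 came from leaving out 1 library, often a library of neither group compared. The fold change then hardly moves, so the 936 is not a measure of stability. The sign changes belonged to values that were not called. Between the iGC groups, 607 genes were called, against 937 with DESeq2, 399 with limma on TPM, 1503 when only these groups were fitted 323 to 403 without any 1 of the 6 iGC libraries, and 1219 without IgG1 PC replicate 1. The number of members called there ranged from 1 to 3 on leaving out a library. For the interaction, 6733 genes were called, against 4477 with limma on TPM. The cause was not tested.

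Cxcl10 between the iGC groups changed sign with limma on TPM (-0.25), and Cxcl10 in IgG1 PC against D6 with total-count scaling (-0.054) and with limma on TPM (-0.22). On leaving out 1 library, the signs of 6 uncalled values depended on the library: Ccl5 (-1.03 to 1.59) and Cxcl10 (-0.34 to 0.55) between the iGC groups, Ccl5 from IgE iGC to IgE PC (-2.06 to 0.84), Ccl22 from IgG1 iGC to IgG1 PC (-0.29 to 0.16), the interaction of Ccl4 (-1.05 to 1.62) and Cxcl10 in IgG1 PC against D6 (-0.088 to 0.48). Total-count scaling moved the median of all genes from -0.04 to -0.57 in IgE PC against D6, and by less elsewhere.

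No label says whether same-numbered libraries belong together. Their deviations from the group means had a mean correlation of -0.01 over 30 such pairs (-0.20 to 0.09). No pairing was thus visible over all genes, which cannot show that the libraries were drawn separately. A replicate block left 580 genes called between the iGC groups, 544 of them among the 607. Depth limits the values of Ccl3 and Ccl4 in IgE cells and D6, where a library held 0 to 6 reads of each, and of Ccl17 in all groups, at 0 to 2 reads.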

Other observations

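Xcl1, a ligand of XCR1 known from T and NK cells, was chosen after its values were seen. It gave 32, 73 and 72 reads in IgG1 PC, 12, 6 and 7 in IgG1 iGC, 5, 4 and 3 in D6, 1, 2 and 1 in IgE iGC and 0 in each IgE PC library. Its pooled level in IgG1 PC, 1.40 CPM, was 44.1-fold above 0.0316 CPM, the level of 3 reads over the IgE PC group. That limit covers counting error in IgE PC only, so 44.1 is not a lower bound of the ratio. Ccl1, a ligand of CCR8, also chosen after its values were seen, gave 12, 36 and 42 reads in IgG1 PC and 1, 0 and 0 in IgE PC, and 7, 5 and 0 in IgG1 iGC against 2, 0 and 0 in IgE iGC. For both genes IgG1 PC replicate 1 was the lowest of its group, as it was for Ccl22, Ccl3 and Ccl4.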
